A study of Arabidopsis thaliana with 6 samples.

Results

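UGT72E1 (AT3G50740), UGT72E2 (AT5G66690), GT72B1 (AT4G01070) and UGT84A3 (AT4G15490) are plant glucosyltransferases, enzymes that move glucose from UDP-glucose onto small molecules. They were taken as every probe set that the array annotation pairs with 1 of these genes and no other. This gave 4 probe sets, 1 per gene, of 22746 that are not array controls. The genes lie on chromosomes 3, 5, 4 and 4. Transcript signals came from 6 Affymetrix ATH1 arrays of wild-type Arabidopsis thaliana, accession Col-0, sampled as whole plants. Both groups, of 3 arrays each, grew as 10 seedlings per flask in 100 ml of shaken medium for 13 days with 16 h of light a day. The TNT group then received 2,4,6-trinitrotoluene at 60 µM in 60 µl of dimethylformamide (DMF) for 6 h, and the DMF group received 60 µl of the solvent alone. Nothing in the labels ties the arrays to separate flasks, so p-values describe only how far these arrays scatter, which may be technical scatter. Flasks of pooled seedlings also hide differences between single plants.

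The phenylpropanoid pathway turns phenylalanine into hydroxycinnamic acids and monolignols, the building blocks of lignin. Enzymes of group UGT72E attach glucose to the phenolic hydroxyl of monolignols and their aldehydes, and enzymes of group UGT84A form glucose esters of hydroxycinnamic acids. GT72B1, also written UGT72B1, is best known for adding glucose to foreign compounds such as chlorinated phenols and anilines. TNT is a nitroaromatic explosive, and in plants its nitro groups are reduced to hydroxylamino and amino groups before such enzymes can add glucose. The comparison asks which of these transcripts differ after exposure to TNT.

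The array labelled TNT replicate 2 stood apart from the other TNT arrays. Over 13648 probe sets tested, a description in which probe sets are not independent, its log2 signals correlated at 0.975 with DMF replicate 2 and at 0.888 and 0.906 with TNT replicates 1 and 3. DMF replicate 2 in turn correlated less with DMF replicates 1 and 3 (0.932 and 0.952) than with TNT replicate 2. The limma results of the 4 genes are therefore given over all 6 arrays and over the 5 arrays without TNT replicate 2. Those of other named genes are given over 1 of these sets or both. That array was dropped because of its signals, which makes TNT look more uniform, and p-values over 5 arrays can be too small. In limma, with a Benjamini-Hochberg adjusted p under 0.05 as the threshold, 0% of probe sets passed over 6 arrays in either direction, while 1195 had an unadjusted p under 0.05. Over 5 arrays 3.69% rose and 3.25% fell. Root and shoot markers were both above the bacterial control probe sets, which stand for background and reach 14.3 at most. The summed signal of 3 of 9 listed leaf and shoot genes, those with a probe set of their own (PRK, STOMAGEN and SBPASE), lay between 2813 and 3310 on DMF arrays and at 1646, 2762 and 1894 on TNT replicates 1, 2 and 3. Over 5 arrays all 3 fell, and each of the 3 lost its call when TNT replicate 1 or 3 was dropped as well (limma adjusted p from 0.0649 to 0.257). SBPASE also lost it without DMF replicate 3 (0.0880), and PRK without DMF replicate 1 (0.0707), DMF replicate 3 (0.144), the filter (0.0606) or the intensity trend (0.0647). In these fits the log2 differences of the 3 genes stayed between -1.35 and -0.65. PRK, STOMAGEN and SBPASE passed with array weights over 6 arrays (limma adjusted p = 0.00341, 0.0174 and 0.00424), where 11.4% of probe sets fell. Those weights were 5.00 for DMF replicate 3, 2.78 for TNT replicate 3 and 0.26 to 0.84 for the other arrays. The 3 genes also passed with the replicate block over 5 (0.000281, 9.21e-05 and 7.31e-05), where 27.4% of probe sets were called. That block leaves DMF replicate 2 without a partner, so the difference rests on the 4 arrays numbered 1 and 3. The summed signal of 3 of 8 root genes (PYK10, EXPA7 and EXPA18) lay between 2826 and 3441 with DMF and between 2690 and 3268 with TNT. PYK10 makes up nearly all of that sum. The median log2 difference of the 3 root genes was -0.87 over 6 arrays and -1.22 over 5. EXPA18 fell over 5 arrays, a call lost without TNT replicate 1 (limma adjusted p = 0.125), TNT replicate 3 (0.0659) or DMF replicate 3 (0.0525), with log2 differences of -1.20 or lower throughout. EXPA7 was lower with TNT in all 3 replicate numbers, by log2 differences of -1.03, -0.53 and -1.06, but missed the threshold over 5 arrays (limma adjusted p = 0.0604). It passed with array weights over 6 arrays (0.0108) and with the replicate block over 5 (0.00219), but not without both arrays numbered 2 (0.0772). EXPA18 passed in all of those fits (limma adjusted p = 0.00326 with weights, 0.000218 with the block and 0.0150 without both arrays numbered 2). The part of these shifts in the results below was not tested, and in whole seedlings fewer cells of a type and less RNA per cell cannot be told apart. The log2 ratio of ubiquitin 3′ to 5′ control signal, a measure of RNA quality, lay between 0.83 and 0.87 with DMF and between 0.63 and 0.72 with TNT. Its part was not tested either.

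UGT84A3, which makes glucose esters of hydroxycinnamic acids, had the largest difference of the 4 genes. Its MAS5 signal, a linear brightness scaled alike on every array, was 24.7, 65.6 and 45.6 in DMF replicates 1, 2 and 3, and 111, 76.9 and 137 in TNT replicates 1, 2 and 3. The lowest TNT array lay above the highest DMF array, so the groups did not overlap. Groups did not overlap for 12.3% of the probe sets tested, with TNT higher in 6.24%. On the log2 scale the mean was 5.39 ± 0.71 (SD, n = 3) with DMF and 6.72 ± 0.42 (SD, n = 3) with TNT. The solvent controls alone spanned 1.41 on that scale, slightly more than the difference between the group means.

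Over 6 arrays UGT84A3 was 2.51-fold higher with TNT (95% interval 1.38 to 4.55), a log2 difference of 1.33 ± 0.37 (SE) with an unadjusted p of 0.00748 and a limma adjusted p of 0.482. It did not pass, although only 0.938% of tested probe sets had a log2 difference as high or higher. Over the 5 arrays UGT84A3 rose 2.94-fold (95% interval 1.60 to 5.37, limma adjusted p = 0.04998). By its p it ranked 947 among the 947 probe sets that passed, so it was the last one called. The call was lost when DMF replicate 3 was left out too (adjusted p = 0.109). It was also lost when TNT replicate 1 (adjusted p = 0.215) or TNT replicate 3 (adjusted p = 0.257) was dropped, although the fold stayed upward. Leaving out both arrays numbered 2 gave a log2 difference of 1.88 ± 0.30 (SE) over 4 arrays (limma adjusted p = 0.0137), where 5.1% of probe sets rose.

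Within replicate numbers UGT84A3 was higher with TNT by 4.49-fold, 1.17-fold and 3.00-fold for numbers 1, 2 and 3. The small step in number 2 came from both sides: DMF replicate 2 had the highest DMF signal and TNT replicate 2 the lowest TNT signal. With the replicate number as a block, the log2 difference over 6 arrays was 1.33 ± 0.36 (SE, limma adjusted p = 0.211). Over the 5 arrays the block gave 1.88 ± 0.18 (SE), which passed (limma adjusted p = 3.37e-06). DMF replicate 2 has no partner in that block and adds nothing to the difference. The estimate is therefore the one found without both arrays numbered 2, from the same 4 arrays, and is not a separate result. The block fit over 5 arrays called 27.4% of the tested probe sets, and 12.9% of the tested ones rose.

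**Figure D1:**
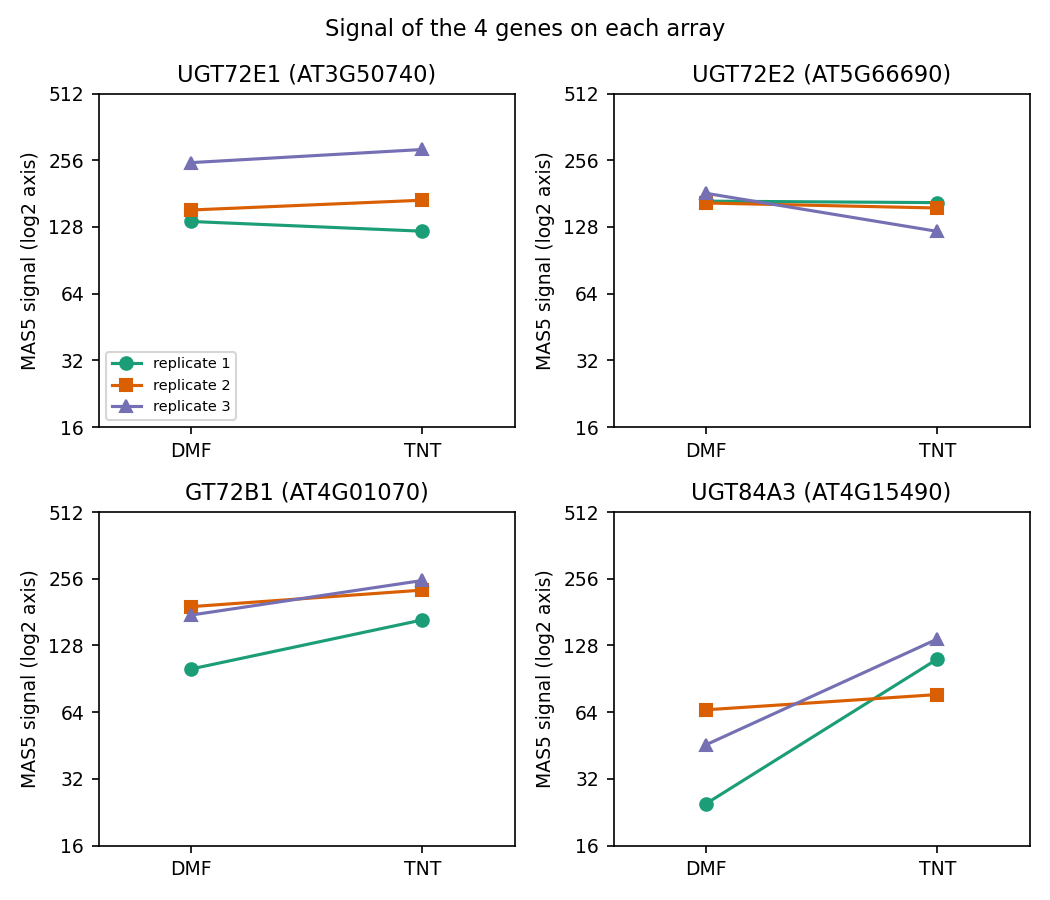
MAS5 signal (log2 axis) of each gene on each of the 6 arrays, in DMF and TNT, with a line joining arrays of the same replicate number. UGT84A3 shows 3 rising lines and no overlap between groups, GT72B1 shows 3 rising lines with overlap, and the lines of UGT72E1 are nearly flat but far apart.

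GT72B1, the glucosyltransferase of chlorinated phenols and anilines, stood higher with TNT in each of the 3 replicate numbers, with a smaller mean step than UGT84A3. Its signals were 100.2, 192 and 176 in DMF replicates 1, 2 and 3, and 167, 228 and 251 in TNT replicates 1, 2 and 3. The groups overlapped, since TNT replicate 1 lay under DMF replicates 2 and 3. The fold within replicate numbers was 1.67, 1.19 and 1.43 for numbers 1, 2 and 3. Of all tested probe sets, 18.8% were higher with TNT in all 3 numbers.

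The log2 difference of GT72B1 over 6 arrays was 0.50 ± 0.28 (SE), or 1.41-fold, with a limma adjusted p of 0.659. The 95% interval ran from 0.91-fold to 2.21-fold. Over the 5 arrays the difference was 0.45 ± 0.31 (SE) and did not pass either (limma adjusted p = 0.447). DMF replicate 1 weighed on this value: without it, the 6-array difference was 0.21. Blocking on the replicate number brought the SE down to 0.14, with an unadjusted p of 0.0117 and a limma adjusted p of 0.218. Blocking over the 5 arrays gave 0.63 ± 0.12 (SE), which passed (limma adjusted p = 0.00195). That fit keeps 1 residual degree of freedom for each probe set and called 27.4% of the tested probe sets, while 12.9% of the tested ones rose. The same difference without both arrays numbered 2 and without the block, 0.63 ± 0.31 (SE), did not pass (limma adjusted p = 0.263).

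**Figure D2:**
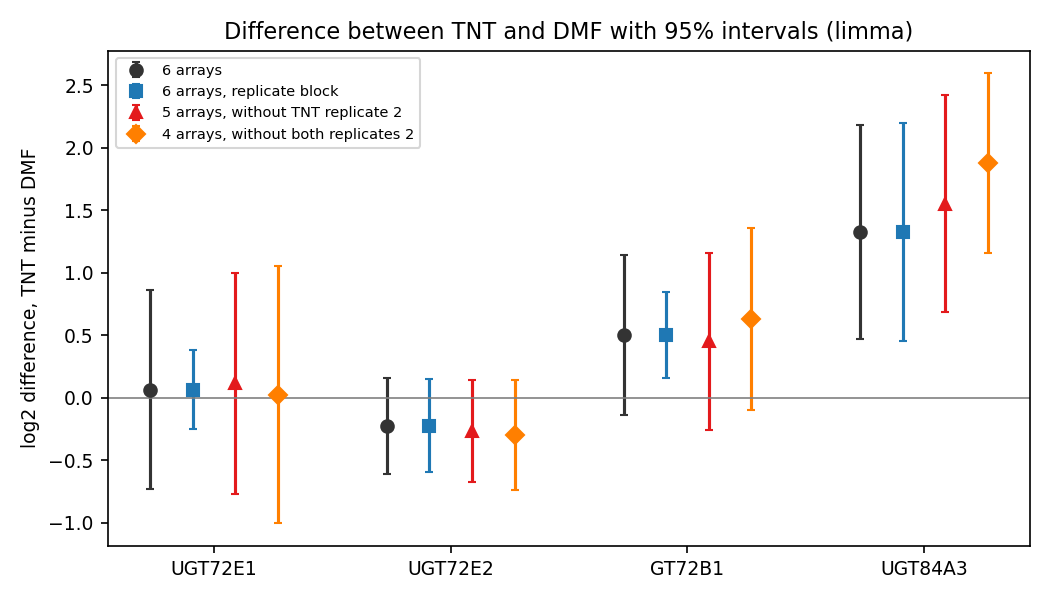
Log2 difference, TNT minus DMF, for each gene with its 95% interval in limma: all 6 arrays, 6 arrays with the replicate number as a block, 5 arrays without TNT replicate 2, and 4 arrays without both arrays numbered 2. The intervals of UGT84A3 lie above 0 in each of these fits, and those of UGT72E1 and UGT72E2 span 0 in each.

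UGT72E1, which puts glucose on coniferyl and sinapyl aldehyde, differed far more between replicate numbers than between treatments. Its signals were 135, 153 and 249.7 in DMF replicates 1, 2 and 3, and 122, 169 and 286 in TNT replicates 1, 2 and 3. Both arrays numbered 3 were high and both numbered 1 were low, and the groups overlapped almost fully. Replicate number held 96.6% of the variation of its log2 signal over the 6 arrays, and TNT or DMF held 0.54%. The medians over all tested probe sets were 54.9% and 16.1%. The log2 difference was 0.07 ± 0.34 (SE) over 6 arrays (limma adjusted p = 0.977) and 0.12 ± 0.38 (SE) over 5 (limma adjusted p = 0.900). With the replicate block the SE was 0.13, and the 95% interval ran from -0.25 to 0.38 on the log2 scale (limma adjusted p = 0.818). A change of 2-fold, or 1 on the log2 scale, lies outside that interval.

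**Figure D3:**
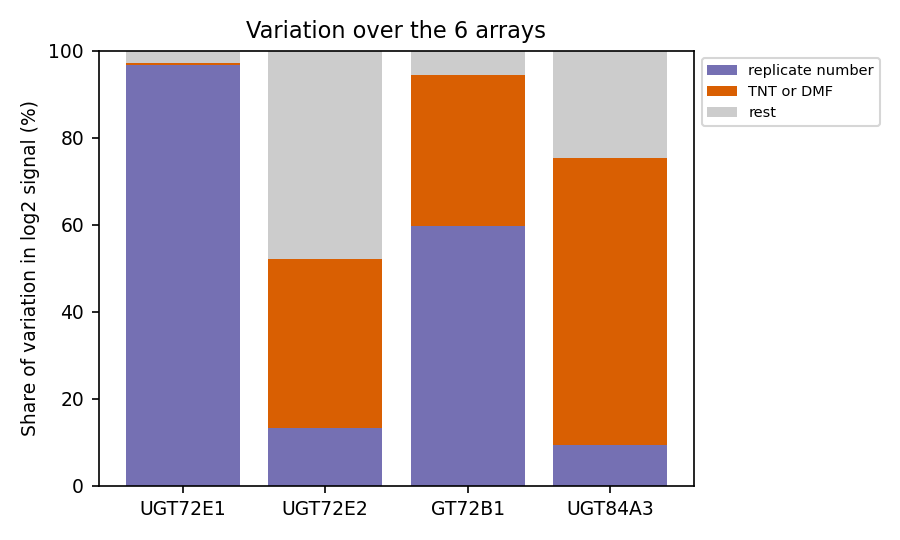
Share (%) of the variation in log2 signal over the 6 arrays that goes with the replicate number, with TNT or DMF, and with neither, for each gene. Replicate number takes 96.6% for UGT72E1 and 9.41% for UGT84A3, while treatment takes 0.54% and 65.9%.

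UGT72E2, the main monolignol glucosyltransferase of Arabidopsis, which forms coniferin and syringin, was the steadiest of the 4 genes in the controls. Its signals were 167, 164 and 182 in DMF replicates 1, 2 and 3, and 165, 156 and 122 in TNT replicates 1, 2 and 3. Only TNT replicate 3 lay far from the controls, and TNT replicate 1 lay within their range. TNT was lower in all 3 replicate numbers, by 0.02, 0.07 and 0.57 on the log2 scale, as it was for 20.7% of tested probe sets. UGT72E2 had a log2 difference of -0.22 ± 0.17 (SE) over 6 arrays (limma adjusted p = 0.758) and of -0.27 ± 0.18 (SE) over 5 (limma adjusted p = 0.433). Without TNT replicate 3 the 6-array value was -0.09. The 95% interval over all 6 arrays, from -0.61 to 0.16, leaves out a change of 2-fold in either direction. With limma's array weights the difference was -0.43 ± 0.13 (SE) and passed (limma adjusted p = 0.0427), in a fit that called 11.4% of probe sets downward. TNT replicate 3, the lowest array for this gene, carried a weight of 2.78 there and the other TNT arrays 0.84 and 0.26.

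Within arrays the 4 genes were compared in 6 pairs, by an exact two-sided permutation test of the log2 difference between genes, TNT against DMF. With 3 arrays per group its smallest possible p is 0.1. The response of UGT84A3 exceeded that of UGT72E2 by 1.55 on the log2 scale (95% interval 0.05 to 3.05) and that of UGT72E1 by 1.26 (-0.19 to 2.71), each at the lowest exact permutation p of 0.1, which became 0.24 after Benjamini-Hochberg adjustment over the 6 pairs. UGT84A3 exceeded GT72B1 by 0.83 (-0.08 to 1.73, exact permutation p = 0.2). In replicate number 2 the responses of UGT84A3 and GT72B1 were 0.23 and 0.25, close together. UGT72E1 and UGT72E2 differed by 0.29 in their response (-1.21 to 1.78, exact permutation p = 0.7). None of the 6 pairs could pass at this size. The median log2 difference of the 4 genes was 0.28 over 6 arrays and over 5, against -0.02 and -0.04 for all tested probe sets.

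Of 15 genes listed for the UGT72 and UGT84 families, 12 had a probe set of their own. Besides the 4 genes above, only UGT84A4 passed the filter on low signal, and 7 did not. Over 6 arrays 0 of the 5 tested genes passed (1 had an unadjusted p under 0.05), and over 5 arrays 1 rose and 0 fell. Their median log2 difference was 0.07 over 6 arrays and 0.12 over 5. UGT84A4 (AT4G15500), another former of hydroxycinnamate glucose esters, is the direct neighbour of UGT84A3 on chromosome 4, with 0 genes between them. Its signals were 29.4, 39.3 and 36.1 in DMF replicates 1, 2 and 3, and 28.8, 31.4 and 25.3 in TNT replicates 1, 2 and 3. TNT was lower in every replicate number, with a log2 difference of -0.29 ± 0.23 (SE) over 6 arrays (limma adjusted p = 0.778). The response of UGT84A3 exceeded that of UGT84A4 by 1.62 on the log2 scale (95% interval 0.40 to 2.83), in 3 of 3 replicate numbers. The exact permutation p was 0.1, again the lowest attainable, in a comparison chosen after the values were seen. UGT84A1 (AT4G15480), the neighbour on the other side, lay between 0.57 and 2.01 on all 6 arrays, under the bacterial controls, so no level can be given for it.

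UGT72B3 (AT1G01420), a relative of GT72B1, had lower values on TNT replicates 1 and 3, at low signal. It measured 17.0, 23.8 and 33.1 in DMF replicates 1, 2 and 3, and 7.30, 26.7 and 6.58 in TNT replicates 1, 2 and 3. TNT replicates 1 and 3 lay under the highest bacterial control of their arrays (7.76 and 12.1), while TNT replicate 2 stayed among the DMF arrays. Without the filter the limma adjusted p was 0.825 over 6 arrays and 0.0692 over 5, so it did not pass. AT1G01390, from the same stretch of chromosome 1 with 2 genes between them, measured 14.2, 11.1 and 20.3 in DMF replicates 1, 2 and 3 against 7.54, 13.8 and 6.16 in the TNT replicates of the same numbers (limma adjusted p = 0.316 over 5 arrays without the filter). For both genes TNT replicates 1 and 3 lay under the highest bacterial control of their arrays. For AT1G01390 DMF replicate 2 did too (11.1 against 14.3). UGT72E3 (AT5G26310), which glucosylates sinapyl alcohol and is close in sequence to UGT72E2, lay between 9.03 and 22.8 on all arrays and exceeded the bacterial controls on 4 of 6. Whether probes of 1 relative also bind transcripts of another was not examined. UGT84B1, which esterifies indole acetic acid, and UGT84B2 stayed under the bacterial controls on all 6 arrays. AT4G36770 exceeded them on 2, and its lowest signal was 0.33, on DMF replicate 1.

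**Figure D4:**
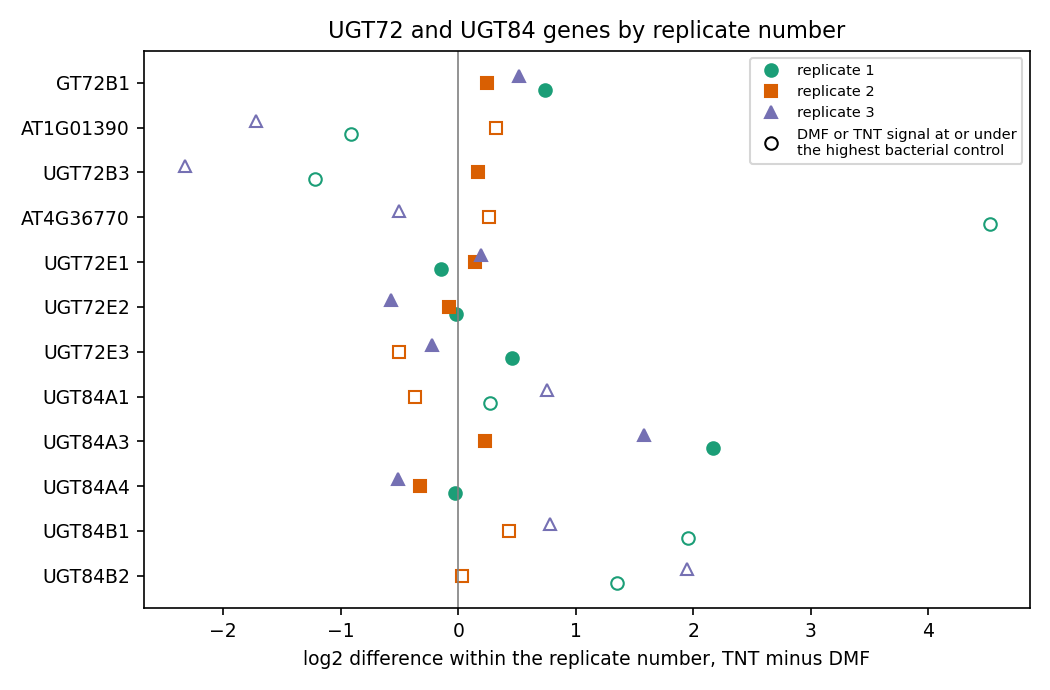
Log2 difference, TNT minus DMF, within each replicate number for the 12 UGT72 and UGT84 genes with a probe set of their own. Open symbols mark a DMF or TNT signal that did not exceed every bacterial control on that array. UGT84A3 stands at 2.17, 0.23 and 1.58 while its neighbour UGT84A4 stands at -0.03, -0.32 and -0.52 in numbers 1, 2 and 3.

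Few enzymes that make the acceptors of these glucosyltransferases could be followed, since the annotation used here leaves 8730 probe sets without a gene name. Of 20 genes of phenylpropanoid and monolignol synthesis, 3 had a probe set of their own and 2 passed the filter. Neither passed in limma over 6 arrays or over 5, with 0 at an unadjusted p under 0.05. Their median log2 difference was -0.16 over 6 arrays and -0.17 over 5. HCT (AT5G48930), the hydroxycinnamoyl transferase at the branch to monolignols, measured 705, 767 and 642 in DMF replicates 1, 2 and 3 against 528, 679 and 619 in the TNT replicates. Its log2 difference was -0.21 ± 0.15 (SE, limma adjusted p = 0.743 over 6 arrays). ALDH2C4 (AT3G24503), which oxidises coniferyl and sinapyl aldehyde to ferulic and sinapic acid, differed by -0.10 ± 0.19 (SE, limma adjusted p = 0.924). CCR2, a cinnamoyl-CoA reductase, was under the filter, with signals from 3.81 to 24.2 with DMF and from 18.7 to 25.3 with TNT.

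Among 21 genes for monolignol glucoside hydrolysis, lignin polymerisation, related products and regulators, 6 had a probe set of their own and 3 passed the filter. Over 6 arrays none of the 3 passed in limma, with 0 at an unadjusted p under 0.05, and over 5 arrays 1 rose and 2 did not pass. Their median log2 difference was -0.06 over 6 arrays and 0.35 over 5. PRX72 (AT5G66390), a peroxidase that links monolignols into lignin, measured 99.3, 77.3 and 71.9 in DMF replicates 1, 2 and 3 against 167, 52.3 and 140.04 in the TNT replicates. TNT replicate 2 was the lowest of all 6 arrays and TNT replicates 1 and 3 were the highest. PRX72 rose 1.87-fold over the 5 arrays (limma adjusted p = 0.0357), against a log2 difference of 0.38 ± 0.41 (SE, limma adjusted p = 0.846) over 6. Its call was lost without DMF replicate 3 (limma adjusted p = 0.120), TNT replicate 1 (0.304) or TNT replicate 3 (0.136) as well, and without the intensity trend (0.0536). Its log2 difference in the alternatives over 5 arrays, which were chosen after the values were seen, stayed between 0.77 and 1.04. PRX72 also passed with array weights over 6 arrays (limma adjusted p = 0.0221) and without both arrays numbered 2 (0.0473). With the replicate block over 5 arrays it passed too (0.000377). BGLU46 (AT1G61820), a glucosidase that takes glucose off monolignol glucosides, differed by -0.27 ± 0.28 (SE, limma adjusted p = 0.842) over 6 arrays. Over 5 arrays it differed by -0.57 ± 0.21 (SE, limma adjusted p = 0.163). It passed with the replicate block over the 5 arrays (-0.63 ± 0.17, SE, limma adjusted p = 0.0136), where 27.4% of probe sets were called. It also passed with array weights over 6 (-0.61, limma adjusted p = 0.0312), where 11.4% fell. Without both arrays numbered 2 the same difference of -0.63 did not pass (limma adjusted p = 0.107). F6′H1 (AT3G13610), the hydroxylase that opens the branch to coumarins such as scopoletin, differed by 0.35 ± 0.19 (SE) over 5 arrays, with a limma adjusted p of 0.338. Over 6 arrays its difference was -0.06 ± 0.34 (SE, limma adjusted p = 0.978), with TNT replicate 2 the lowest array at 186. Of 10 genes for UDP-glucose supply and 7 xylem markers, 0 were paired with a probe set alone in this annotation, so they were not analysed here.

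The genes whose log2 signal followed each enzyme most closely over the 6 arrays were taken from 1056 tested genes with a symbol, as a description. All points come from the same 6 arrays, so array scaling is shared. For UGT84A3 they were UPF3 (r = 0.980), a factor of nonsense-mediated mRNA decay, TIL (r = 0.978), a lipocalin tied to heat and oxidative stress tolerance, and ASPGB1 (r = 0.978), an asparaginase. ASPGB1 measured 30.97, 50.6 and 36.2 in DMF replicates 1, 2 and 3 against 71.8, 56.04 and 71.4 in the TNT replicates, which shows the same near meeting of groups in replicate number 2. For GT72B1 they were NDP1 (r = 0.989), OCT4 (r = 0.966), of the organic cation transporter family, and ATOEP16-4 (r = 0.966). For UGT72E1 they were SPP (r = 0.955), bHLH115 (r = 0.948), a transcription factor of iron homeostasis, and OSB1 (r = 0.928), a mitochondrial DNA-binding protein. For UGT72E2 they were NET1B (r = 0.956), an actin-binding protein, BUB3.1 (r = 0.933), of the spindle checkpoint, and the gene listed as PGM, AT1G78050 (r = 0.907). Values of r at or above 0.9 were reached by 26, 12, 9 and 4 of the 1056 genes for UGT84A3, GT72B1, UGT72E1 and UGT72E2.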

How the data were processed

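The authors' deposited values are probe set intensities on a linear scale, for which the submitters' processing notes name MAS5 and GCOS, with versions not given in the sources used here. Without the top and bottom 2% of values every array had a mean of 100.01, so arrays were already scaled. Of 22810 probe sets, 64 controls were left out. Symbols come from the TAIR10.1 reference table. Replicate numbers are those of the sample titles, and the TNT sample without one was called replicate 1.

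Signals were taken to log2 with no offset. Probe sets at or above the 40th percentile of mean log2 signal (13648, all 4 genes included) were tested with limma 3.58.1 in R 4.3.3 (intensity trend, two-sided, Benjamini-Hochberg). The fit was also run on simulated data with independent noise on each array. Same-numbered arrays here deviate together, so that run cannot show how the fit behaves on such arrays. Genes under the filter take values from the fit without it. The highest of 27 bacterial control probe sets on each array, from 6.34 to 14.3, marked background. The number of arrays limits the precision. The alternatives tried were other filters, an offset of 16, other normalizations, array weights, the replicate block and arrays left out.

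The genes, the lists, the 5-array comparison and the alternatives were chosen with earlier results of these data known. Named were the 4 genes, their measured UGT72 and UGT84 relatives, in other lists the genes that passed and the 2 tested ones with the smallest p among the rest (CCR2 was added after its values were seen), and the 3 genes most alike to each enzyme by Pearson's r. Same-numbered arrays deviated together from their group means (correlations of 0.54, 0.47 and 0.43 over probe sets for numbers 1, 2 and 3). On this check alone the numbers were treated as pairs, in the comparisons within replicate numbers and in the replicate block. The other limma fits, the main ones included, were not paired, so their SEs and adjusted p-values take no account of the replicate number. The 5-array fit without the block keeps DMF replicate 2 without its partner, so the deviation of that array enters the treatment difference. With the block that array has no part in the treatment difference, which then rests on the 4 arrays numbered 1 and 3.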

Additional observations from a re-analysis of the deposited data

How the results depend on the processing

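Over 6 arrays, 0 probe sets passed with no filter, a 60th percentile filter, an offset of 16, quantile normalization, median centring, no intensity trend, only probe sets paired with 1 gene, or the replicate block (0, with 2311 at an unadjusted p under 0.05). Array weights gave 2896, and leaving out both arrays numbered 2 gave 1374. With single arrays left out the count ran from 0 to 947, with 3 without DMF replicate 2 and 947 without TNT replicate 2. Over 5 arrays the count of 947 became 2897 with array weights and 3733 with the replicate block, and ran from 179 (without TNT replicate 1) to 1374 (without DMF replicate 2) with 1 more array left out. It was 202 without TNT replicate 3 and 386 without DMF replicate 3. The cause was not tested.

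UGT84A3 stayed higher with TNT in every alternative run. Over 6 arrays it passed with array weights (log2 difference 1.53, limma adjusted p = 0.00371) and without both arrays numbered 2 (1.88), and single arrays left out gave 0.94 to 1.65. The weighted fit leaned on DMF replicate 3 (weight 5.00) and TNT replicate 3 (2.78), and 1336 of 13648 probe sets rose in it. Over 5 arrays the UGT84A3 log2 difference of 1.55 no longer passed without the filter (adjusted p = 0.0544) or without the intensity trend (adjusted p = 0.0695), and 1 more array left out gave 1.17 to 1.88. It still passed there with an offset of 16 (limma adjusted p = 0.0371), quantile normalization (0.0312) or median centring (0.0188). Array weights (0.00425) and the replicate block (3.37e-06) over 5 arrays kept the call too. Those weights again leaned on DMF replicate 3 (4.92), and the block fit rests on the 4 arrays numbered 1 and 3. The 60th percentile filter removes UGT84A3, so it has no value there. UGT72E2 passed with array weights over 6 arrays (-0.43). GT72B1 passed only with the replicate block over 5 arrays (0.63), and the block changed no other call of the 4 genes. UGT72E1 changed sign without DMF replicate 1 (-0.11), DMF replicate 2 (-0.02) or TNT replicate 3 (-0.26) over 6 arrays, within a range of -0.26 to 0.35. Over 5 arrays it changed sign with array weights (-0.29), without DMF replicate 1 (-0.06) and without TNT replicate 3 (-0.50), within -0.50 to 0.73. Signals near the bacterial controls limit what can be said of 7 of the 12 family genes.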
